A study of Mus musculus with 6 samples.

Results

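The 10 genes described here encode the catalytic core of Polycomb repressive complex 2 (PRC2) and the accessory subunits that define its alternative forms: *Ezh1*, *Ezh2*, *Eed*, *Suz12*, *Jarid2*, *Aebp2*, *Mtf2*, *Phf1*, *Phf19* and *Epop*. They were found in the deposited table by matching RefSeq transcript identifiers to gene symbols. Each of the 10 genes was matched by 1 entry among the 20633 entries of the table, which carry 19338 distinct symbols, and no member was missing or lost to a filter. The study deposited nuclear RNA-seq of a mouse embryonic stem cell line, isolated as an individual colony after Cas9 removed part of *Yaf2* (*Yaf2*-/-), whose *Rybp* alleles are both floxed (*Rybp* fl/fl). There were 3 untreated libraries (UNT) and 3 libraries of cells kept for 96 hr in 4-hydroxytamoxifen (OHT) at 800 nM, the treatment used to delete *Rybp*; every library therefore lacks *Yaf2*, and no OHT-treated cells without floxed *Rybp* were analysed here.

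PRC2 is the methyltransferase complex for lysine 27 of histone H3, and its trimethylated product, H3K27me3, marks silent developmental genes in embryonic stem cells. The enzyme, EZH2 or its paralog EZH1, is active only when assembled with EED and SUZ12. EED binds H3K27me3 and stimulates the enzyme, whereas SUZ12 is the scaffold on which accessory subunits assemble into mutually exclusive forms. PRC2.1 contains a Polycomb-like protein (MTF2, PHF1 or PHF19) and can contain EPOP, and PRC2.2 contains JARID2 and AEBP2. Polycomb-like proteins bind unmethylated CpG-rich DNA, while JARID2 and AEBP2 recognise the ubiquitylated histone H2A that PRC1 deposits, which ties these genes to the question the study asked about how PRC1 and PRC2 communicate.

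The measurement used here is the base mean, the authors' mean over all 6 libraries of read-pair counts normalized for library size. It describes the level of a gene in UNT and OHT cells together. The table gives no value per library, so no SD, no interval and no test can accompany these levels, sequencing depth per library is unknown, and whether any PRC2 gene differed between UNT and OHT was not analysed here. All values below are therefore descriptions without a replicate error, and small differences between neighbouring genes cannot be separated from the spread between libraries. In these bulk libraries, fewer cells of a type and less RNA per cell cannot be told apart. The base means sum to 23389513 normalized counts, the median entry has a base mean of 236.4, and the quartiles are 11.3 and 1142. Of the 20633 entries, 1435 are listed at 0. *Rybp*, the gene that OHT deletes, has a base mean of 13983, and since it is pooled over UNT and OHT this value does not check the labels of the libraries. *Yaf2*, deleted in every library, has 3.24, at percentile 17.8.

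Most PRC2 genes ranked high among the nuclear transcripts of these cells. The median base mean of the 10 genes was 4115, at percentile 93.0 of all entries, and 9 of the 10 lay above the median entry. In the top decile of the table, which begins at a base mean of 3067, were 6 of them, namely *Jarid2*, *Mtf2*, *Suz12*, *Ezh2*, *Eed* and *Aebp2*. Between the highest and the lowest member, *Jarid2* and *Phf1*, the base mean differed by 195-fold. Ranked by base mean, the order was *Jarid2*, *Mtf2*, *Suz12*, *Ezh2*, *Eed*, *Aebp2*, *Ezh1*, *Epop*, *Phf19* and *Phf1*. Which neighbours in this order differ beyond the spread between libraries could not be tested.

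**Figure D1:**
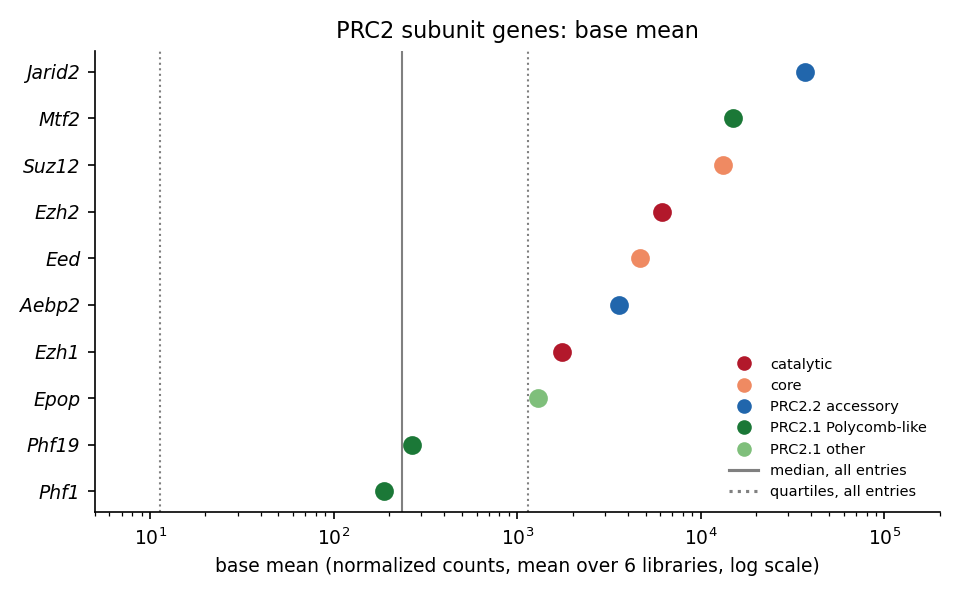
Base mean of the 10 PRC2 genes in normalized counts, the authors' mean over 6 libraries, on a log axis; points are single pooled values without error bars, coloured by role, and grey lines give the median (236.4) and quartiles (11.3 and 1142) of all 20633 entries. Of the 10 genes, 8 lie above the upper quartile, *Phf19* lies just above the median and *Phf1* below it.

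A base mean is not corrected for length, and nuclear RNA holds both introns and exons. The authors added an alignment step to recover nascent, intronic reads and filtered genes on the mappability of the gene body, but whether their script counted reads over the whole gene body is not stated in the sources used here. Levels are therefore compared between genes on 2 scales, per kilobase of gene span and per kilobase of exons, both from the GENCODE vM21 transcript that carries the entry's RefSeq identifier (mm10). The choice matters for these genes because their structures differ widely. *Jarid2* spans 189335 bp of chromosome 13 (44730774 to 44920108, plus strand), of which its 19 exons make up 2.18%. *Epop*, at the other extreme, is a gene of 1 exon and 2314 bp on the minus strand of chromosome 11 (97627389 to 97629702). Over all entries with a known length, exons make up a median of 13.1% of the span. Across entries the base mean was higher for longer genes, with a Spearman rho of 0.44 for the gene span and 0.44 for exon length, over 20261 entries, all measured in the same libraries.

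Among the catalytic subunits, *Ezh2* was the more abundant. EZH2 is the more active methyltransferase and predominates in dividing cells, and EZH1 is the paralog that persists in differentiated, resting cells. *Ezh2* lies on the minus strand of chromosome 6 (47530139 to 47595030, 20 exons) and has a base mean of 6142, at percentile 96.3. *Ezh1* lies on the minus strand of chromosome 11 (101191116 to 101226450, 21 exons) and has a base mean of 1743, at percentile 82.2. *Ezh1* was thus above the median entry in these stem cells, by 7.37-fold in base mean. With length corrected it was at percentile 75.8 per kilobase of gene span and 75.7 per kilobase of exons. The ratio of *Ezh2* to *Ezh1* depended on the length used: it was 1.92 per kilobase of gene span and 5.33 per kilobase of exons. The *Ezh2* gene is longer in span than *Ezh1* but has shorter exons, 2775 bp against 4193 bp, so the base mean ratio of 3.52 lies between these values. Of the summed level of the catalytic pair, *Ezh2* took 65.7% per kilobase of gene span and 84.2% per kilobase of exons. No 40-base stretch, the read length of these libraries, is shared between the annotated transcripts of the 2 genes (0 of 7010 distinct stretches in *Ezh2* occur in *Ezh1*), so that full-length exonic reads of the paralogs differ in sequence. Introns were not compared.

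The non-catalytic core genes both lay in the top decile of the table. *Suz12* (chromosome 11, 79993106 to 80034122, plus strand, 15 exons) has a base mean of 13154, at percentile 99.2 and position 157 from the top of the table. *Eed* (chromosome 7, 89954654 to 89980983, minus strand, 12 exons) has a base mean of 4642, at percentile 94.2. Per kilobase of gene span, the level of *Suz12* was 320.7 and that of *Eed* 176.3 normalized counts, against 94.6 for *Ezh2*. Per kilobase of exons the core genes came closer together, with 3057 for *Suz12*, 2246 for *Eed* and 2213 for *Ezh2*. On the exon scale *Eed* and *Ezh2* were thus nearly equal, with a ratio of 1.01, whereas on the span scale *Eed* was 1.86 times as high. *Suz12* was the highest of the core genes on both scales and in base mean.

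The PRC2.2 subunits were both in the top decile by base mean, with *Jarid2* far above *Aebp2*. JARID2 is a catalytically inactive member of the Jumonji family that binds and stimulates PRC2, and AEBP2 is a zinc finger protein that stabilises the complex. *Jarid2* has a base mean of 36777, at position 10 from the top of the whole table and 156 times the median entry. *Aebp2* (chromosome 6, 140622663 to 140655481, plus strand, 8 exons) has a base mean of 3587, at percentile 91.8. The length of *Jarid2* bears on this gap. Per kilobase of exons *Jarid2* was the highest of the 10 genes, with 8894 normalized counts, and 14.7 times as high as *Aebp2*. Per kilobase of gene span it came at position 4, with 194.2 normalized counts, and was 1.78 times as high as *Aebp2*, at 109.3. On this scale *Jarid2* remained at percentile 94.9 of the 20261 entries with a length.

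Among the Polycomb-like genes, *Mtf2* accounted for most of the family level on every scale. MTF2, PHF1 and PHF19 share a Tudor domain and PHD fingers and occupy the same place in PRC2.1. *Mtf2* (chromosome 5, 108065742 to 108109004, plus strand, 15 exons) has a base mean of 14899, at percentile 99.4. *Phf19* (chromosome 2, 34893757 to 34913976, minus strand, 15 exons) has a base mean of 265.8, at percentile 51.5. *Phf1* (chromosome 17, 26933460 to 26937891, plus strand, 15 exons) has a base mean of 188.8, at percentile 47.2. By base mean, the family was thus split between 1 gene near the top of the table and 2 genes next to its median. *Phf1* was higher per kilobase of gene span, at percentile 73.0, where *Phf19* was at 52.5. Per kilobase of gene span, *Mtf2* made up 86.1% of the summed family level, *Phf1* 10.6% and *Phf19* 3.29%. Per kilobase of exons, the shares were 95.8% for *Mtf2*, 2.35% for *Phf1* and 1.85% for *Phf19*. *Mtf2* was 26.2 times as high as *Phf19* on the span scale and 51.7 times on the exon scale. *Phf1* was below *Phf19* in base mean and above it per kilobase on both scales, so the order of this pair rests on the length correction. The annotated transcripts of the 3 genes share 0 stretches of 40 bases with each other.

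**Figure D2:**
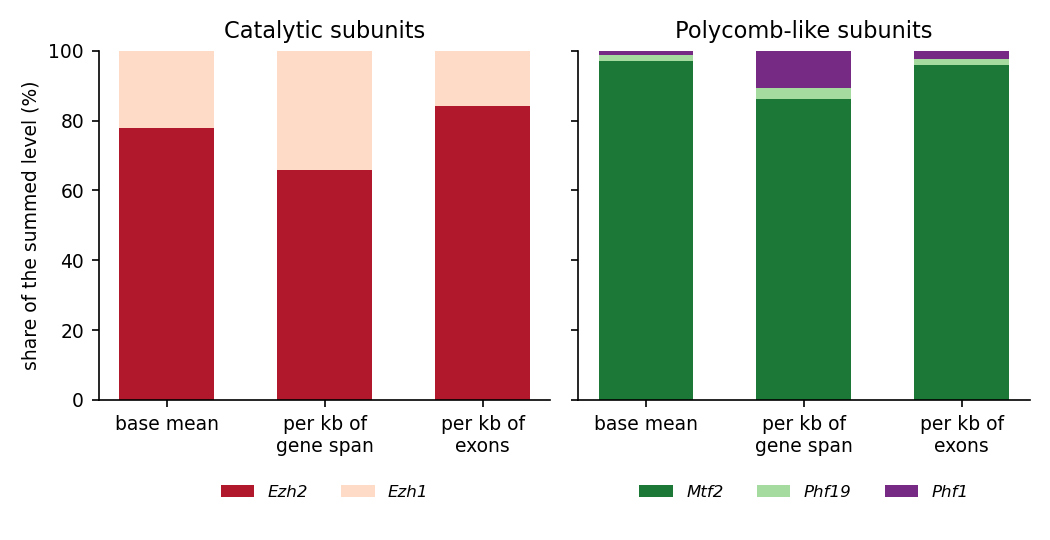
Share of the summed level, in percent, taken by *Ezh2* and *Ezh1* (left) and by *Mtf2*, *Phf19* and *Phf1* (right), from base means and from base means per kilobase of gene span or of exons; bars are shares of pooled means over 6 libraries and have no error. *Ezh2* takes between 65.7% and 84.2% and *Mtf2* between 86.1% and 97.0%.

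*Epop*, whose product joins PRC2.1 through SUZ12 and also binds elongin BC, has a base mean of 1292, at percentile 77.1. Since *Epop* has 1 exon, both length scales give the same value of 558.1 normalized counts per kilobase. Per kilobase of gene span this was the highest level of the 10 genes, at percentile 98.7 and 1.62 times that of *Mtf2*. Per kilobase of exons it was at position 7, at percentile 81.4, and *Mtf2* was 6.58 times as high. The position of *Epop* among PRC2 genes therefore depended on the scale.

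Across scales, some features of the order held and others did not. *Mtf2* was at position 2 and *Suz12* at position 3 on all 3 scales, *Aebp2* was at position 6 on all 3, and *Phf1* and *Phf19* were the lowest pair throughout. *Jarid2* moved between positions 1 and 4, *Ezh2* between positions 4 and 7, and *Epop* between positions 1 and 8. Membership of the top decile changed as well. Per kilobase of gene span *Ezh2* (percentile 87.3) and *Aebp2* (89.4) fell below it and *Epop* (98.7) entered it. Per kilobase of exons *Aebp2* (82.8) fell below it. The range between the highest and lowest member was 42.5-fold per kilobase of gene span and 125-fold per kilobase of exons. The median percentile of the 10 genes was 91.8 per kilobase of gene span and 90.0 per kilobase of exons, close to the 93.0 of the base mean.

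**Figure D3:**
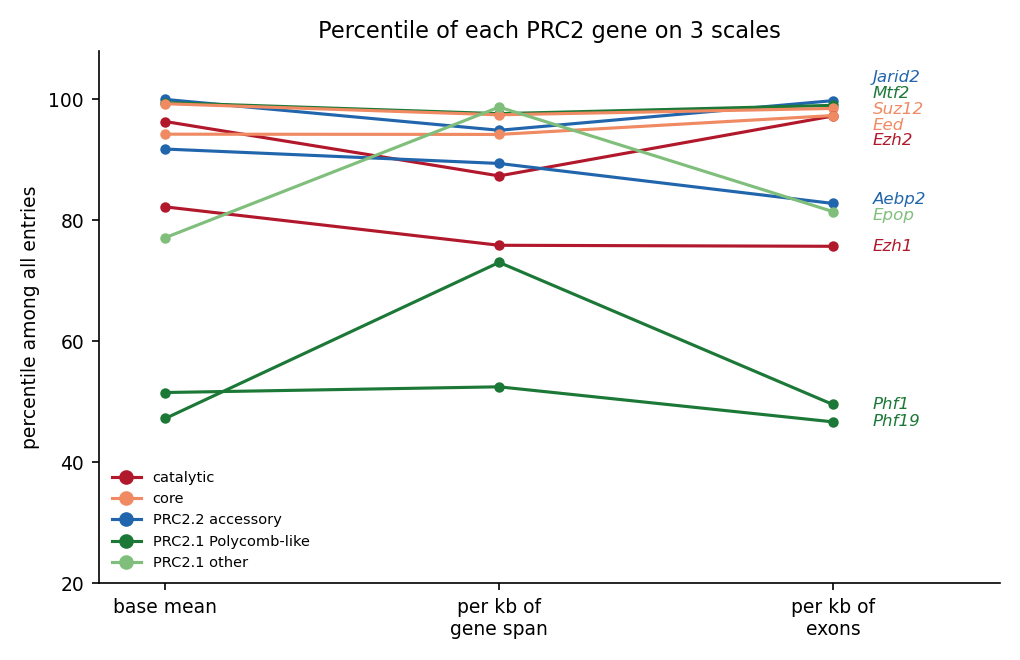
Percentile of each PRC2 gene among all entries for the base mean (20633 entries) and for the base mean per kilobase of gene span and of exons (20261 entries with a length); each line is 1 gene, coloured by role, from pooled values without error, and the axis starts at 20. *Mtf2* and *Suz12* stay above percentile 97 on all scales, while *Epop* and *Phf1* are higher on the gene span scale than on the others.

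Annotated genes overlapping the members could add reads to them. The library kit keeps the strand, but whether the authors' counting used it is not stated in the sources used here. Of the 10 genes, 7 overlap other GENCODE genes and 3 (*Ezh1*, *Aebp2* and *Epop*) overlap none. *Phf1* is the most affected: *Cuta*, a gene on the opposite strand with a base mean of 491.5, covers 91.9% of the *Phf1* span. The base mean of *Phf1* is therefore uncertain should strand not have been used. *Tmed5*, on the opposite strand of *Mtf2* with a base mean of 1533, covers 6.10% of the *Mtf2* span. A non-coding RNA on the opposite strand covers 30.5% of *Suz12*. The remaining overlaps cover at most 7.77% of a member, except for a second non-coding gene over 24.9% of *Phf1*. Of the 11 overlapping genes, 2 lie on the same strand as the member, where strand cannot separate the reads. They cover 1.55% of *Eed* and 1.53% of *Phf1*.

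Promoter sequence was examined as a property that the choice of genes did not use. RefSeq windows of 300 bases (GRCm38.p6, from 250 bases before to 50 bases after a start) were found for 9 of the 10 genes, all except *Epop*, and the window nearest the start of the entry was taken for each gene. Of these 9 windows, 8 had an observed-to-expected CpG ratio of at least 0.6, against 53.2% of the 18833 windows of genes in the table and 55.4% of 15091 windows chosen in the same way, 1 for each gene. Over all 13 windows of the members, 10 reached this ratio. The 9 nearest windows had a median ratio of 0.88, against 0.64 for the 18833 windows and 0.66 for the 15091. *Mtf2* had the highest ratio, 1.09, and *Aebp2* the lowest, 0.23, among the nearest windows. The other windows of these genes varied: those of *Aebp2* that begin 2246 and 4222 bp further downstream had ratios of 0.77 and 0.22, that of *Mtf2* had 0.13 and that of *Jarid2* had 0.83. The letters TATAAA, on either strand, were in 0 of the 9 nearest windows, against 10.2% of the 15091 windows chosen in the same way. Of the 13 windows, 1 held them, a second window of *Jarid2*, against 9.93% of the windows of genes in the table.

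E2F factors drive genes of the cell cycle, and EZH2 and EED are known E2F targets in other cells, so the windows were searched on both strands for TTTCCCGC, TTTGGCGC, TTTCGCGC and TTTGCCGC. A match was found in 3 of the 9 nearest windows, those of *Ezh2*, *Suz12* and *Phf19*, against 3.27% of the 15091 windows chosen in the same way. Over all 13 windows of the members the count was also 3, against 3.12% of the 18833 windows of genes in the table. The matches are shown so that the letters behind this count can be seen. *Suz12* and *Phf19* hold TTTCCCGC, and *Ezh2* holds TTTGGCGC. Each line gives 30 bases of mm10 in the direction of transcription, with the matched letters in capitals.
*Ezh2* (chr6:47595009-47595038, minus strand): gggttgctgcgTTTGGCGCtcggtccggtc
*Suz12* (chr11:79992876-79992905, plus strand): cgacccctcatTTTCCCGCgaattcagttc
*Phf19* (chr2:34914166-34914195, minus strand): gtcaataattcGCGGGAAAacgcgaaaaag

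In *Phf19* the match is on the opposite strand and reads GCGGGAAA in the direction shown. The match in *Ezh2* begins 3 bases after the start, whereas those in *Suz12* and *Phf19* lie in the upstream part of the window. The matching genes had base means of 6142, 13154 and 265.8, and thus ranged from near the median entry to the top decile. *Eed* held no match in its window, which says only that these letters are not in it. Each of the searched sequences contains CG, and the windows with a match had CpG ratios of 1.00 (*Ezh2*), 1.09 (*Suz12*) and 0.95 (*Phf19*). How far the number of matches follows from CpG content was not tested. A match is a description of the sequence, and binding was not analysed here.

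Other genes linked to PRC2 were present at varied levels. *Rbbp4* and *Rbbp7*, which encode the histone-binding WD40 proteins found in PRC2 and in other complexes, have base means of 5940 and 5004, and levels per kilobase of exons of 1348 and 2230 normalized counts. *Rbbp7* was thus at nearly the exon-scale level of *Ezh2* and *Eed*. Per kilobase of gene span it was higher than both, at 267.7 normalized counts against 94.6 for *Ezh2* and 176.3 for *Eed*. *Rbbp4* was at 210.1 on that scale. *Lcorl* and *Lcor*, each with a transcript form that encodes a PALI subunit of PRC2.1, have base means of 4263 and 589.2, which include every other product of these genes that shares the counted sequence. *Ezhip*, the gene of an inhibitor of EZH2 that is active in germ cells, has a base mean of 32.6, below the median entry. Of these 5 genes, 4 lay above the median entry, and the median of the 5 base means was 4263. The genes listed as H3K27 demethylases were also present: *Uty* has a base mean of 7462, *Kdm6a* has 7000 and *Kdm6b* has 463.3. Whether each product is active as a demethylase was not examined, so the level of *Uty* is not a measure of demethylase activity. *Uty* and *Kdm6a* are related in sequence, and reads shared between them were not examined.

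The labelled cell type was checked against marker genes. All 8 embryonic stem cell markers lay above the median entry, from 1272 for *Dppa4* to 12088 for *Tfcp2l1*, and their median was 2984, against 4115 for the PRC2 genes. The order of these medians turned with length: the stem cell markers had a median percentile of 96.7 per kilobase of gene span and 94.0 per kilobase of exons, above the 91.8 and 90.0 of the PRC2 genes. By base mean, markers of other cells were lower but not absent. Per kilobase of gene span the lists overlapped, with *Nes* at percentile 85.1 and the lowest stem cell marker at 81.4. Per kilobase of exons the highest of the other markers was at percentile 71.4 and the lowest stem cell marker at 85.2. Of 7 fibroblast markers, 2 lay above the median entry, and base means ran from 2.42 for *Lum* to 369.3 for *Col1a1*. Of 5 endoderm markers, 1 did, from 0.90 for *Afp* to 268.5 for *Gata4*, and of 5 neural markers, 2 did, from 1.77 for *Neurog2* to 767.8 for *Nes*. No defining marker was listed at 0. Summed over each list, the base means were 1000.2 for fibroblast, 428.2 for endoderm and 1663 for neural markers, against 38469 for the stem cell markers and 82691 for the PRC2 genes. The lists differ in size and the sums are not corrected for length. *Jarid2* alone makes up 36777 of the PRC2 sum. The part of other cell types in the levels of PRC2 genes was not tested.

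**Figure D4:**
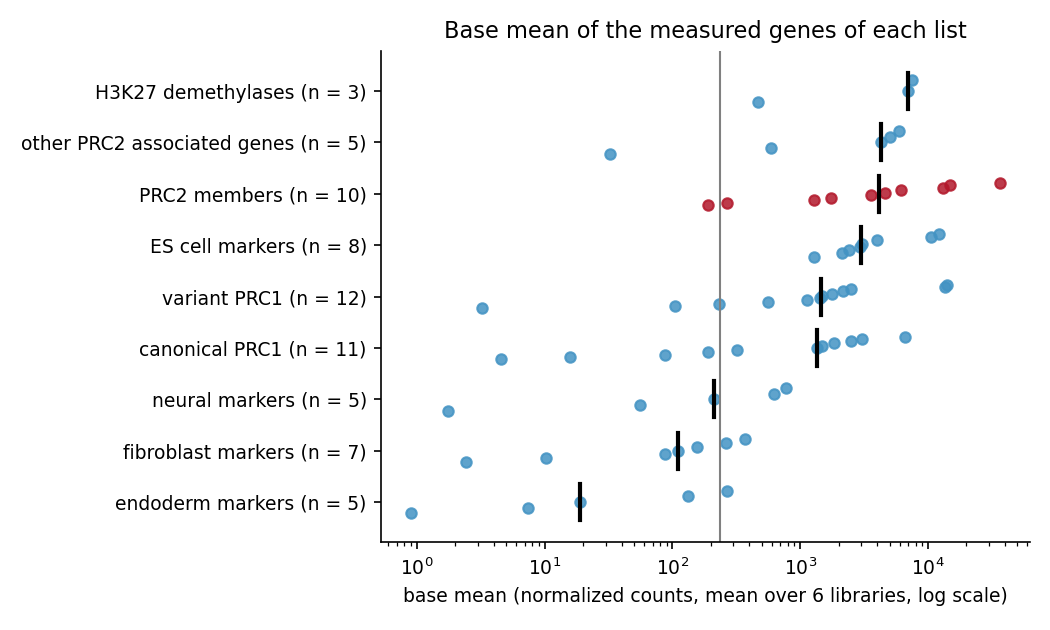
Base mean of every measured gene of each list in normalized counts, the authors' mean over 6 libraries, on a log axis; points are genes, black bars are list medians and the grey line is the median of all entries (236.4). The PRC2 genes, in red, have a median of 4115 and extend from 188.8 to 36777, and the markers of other cell types have medians under the median entry.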

How the data were processed

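Nuclear RNA from 3 UNT and 3 OHT libraries was sequenced with 40 bp paired reads. The authors discarded reads matching rRNA (bowtie2), mapped the others to mm10 using STAR, passed reads that STAR left unmapped to bowtie2, counted read pairs on a filtered refGene set with their own script and ran DESeq2. Tool versions are not given in the sources used here. The base mean deposited by the authors is a signal, namely counts divided by size factors and averaged over the 6 libraries. The other 6 columns hold the authors' comparison of OHT with UNT (fold change, standard error, statistic, p-values and a threshold flag) and were not used.

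Symbols were taken from RefSeq on GRCm38.p6 (20450 entries) and GENCODE vM21 (20560 in all), and lengths were found for 20261. Where a symbol had several entries, the one with the highest base mean was kept. Percentiles are mid-ranks among all entries. Python 3.11.15, numpy 2.4.6, pandas 2.3.3 and matplotlib 3.10.9 were used, and the steps were tested on simulated data. The column used holds no value per library, so no test between samples was made. Members and lists were chosen with earlier results of these data known. The genes named are all PRC2 members, all PRC2-associated and H3K27 demethylase genes, *Rybp*, *Yaf2*, the highest and lowest gene of each other list, and genes overlapping a member, which were chosen after their values were seen. Alternatives concerned the entry kept, the entries ranked against and the length used.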

Additional observations from a re-analysis of the deposited data

How the results depend on the processing

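No paired analysis was possible because the value used is a mean over all libraries; for the same reason no library could be left out, and the depth of single libraries sets no known limit here. Summing all entries of a symbol changed no value for the PRC2 genes, each of which has 1 entry. The median percentile of the PRC2 genes, 93.0 among all entries, was 92.5 among entries with a base mean above 0, 90.7 among those with at least 10, 91.8 per kilobase of gene span and 90.0 per kilobase of exons. The ratio of *Ezh2* to *Ezh1*, 1.92 per kilobase of gene span, was 5.33 per kilobase of exons and 3.52 without a length correction, so *Ezh2* was the higher each time. The *Mtf2* share of the Polycomb-like level, 86.1% per kilobase of gene span, was 95.8% per kilobase of exons and 97.0% without a length correction. For the other lists, the median percentile by base mean is followed by that per kilobase of gene span and then of exons. It was 93.4, 79.0 and 88.2 for the other PRC2-associated genes, 97.1, 76.2 and 92.3 for the H3K27 demethylases, 77.8, 70.9 and 71.7 for canonical PRC1, and 79.1, 71.3 and 73.2 for variant PRC1. For markers it was 89.6, 96.7 and 94.0 for stem cells, 41.7, 39.0 and 37.5 for fibroblasts, 28.1, 38.7 and 30.6 for endoderm, and 48.7, 50.5 and 48.4 for neural cells. The share of promoter windows of genes in the table with a CpG ratio of at least 0.6, 53.2%, was 55.4% with 1 window for each gene, an alternative chosen after seeing the data.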

Other observations

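PRC1, the ubiquitin ligase complex for histone H2A, shares target genes with PRC2, and its subunit genes were measured in the same table. Of 12 canonical PRC1 genes listed, 11 had an entry and 7 of these lay above the median entry, with base means from 4.58 for *Cbx8* to 6555 for *Phc1* and a median of 1343. Of 13 variant PRC1 genes listed, 12 had an entry and 9 lay above the median entry, from 3.24 for *Yaf2*, which is deleted in these cells, to 13983 for *Rybp*, and the median was 1452. The PRC2 median of 4115 was higher than both, and it was so also as a percentile on each length scale. These are differences between medians of pooled values, without an error or a test.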
